A study of Mus musculus with 8 samples.

Results

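The genes described here encode the conjugating enzymes of phase II metabolism: the UDP-glucuronosyltransferases (UGT), the soluble and mitochondrial glutathione transferases (GST) and the microsomal glutathione transferases (Mgst). Members were all genes whose symbol matched Ugt1a, Ugt2a, Ugt3a or Ugt2b with a number, Gst of the classes a, k, m, o, p, t or z with a number, or Mgst1 to Mgst3, which gave 46 of the 55487 genes in the count table, 21 UGT, 22 GST and 3 Mgst genes. The rule uses symbols alone, and it was set with earlier results of these data known. Of the 46 members, 39 had enough counts to be tested.

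By their labels and the study's methods, the samples were stromal vascular fractions of subcutaneous tumors grown from MC38 cells, a mouse colon cancer line that carried a green fluorescent protein (GFP) label, in Bmal1+/+ and Bmal1-/- mice. GFP-positive tumor cells were removed by sorting and RNA from the remaining cells was sequenced, with 4 libraries of each genotype label. Bmal1 is the core activator of the circadian clock, and by the study's methods the mice were bred from Bmal1+/- founders, so the allele is carried by every tissue and effects in the sorted cells and in the rest of the animal are not separated. The series text gives 4 mice per group, and the labels give neither age nor sex.

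The labels were checked against the data first. Bmal1 itself (Arntl) was higher in the libraries labelled Bmal1-/- (32.7, 32.5, 35 and 30.1 CPM) than in the Bmal1+/+ libraries (2.71, 0.96, 1.01 and 1.5 CPM), which goes against the label, and the mutant group is therefore called the libraries labelled Bmal1-/- throughout. The counts are per gene, so a deleted part of the transcript is not separated from the rest. Nr1d1, a known BMAL1 target, fell from 44.1 ± 5.90 to 2.82 ± 1.05 CPM (log2 fold change -3.97, adjusted p = 5.45e-06), the direction the label implies. The target Dbp, given with the regulators, fell as well. The study's methods give no time of day of collection, and its part in the levels of these clock genes was not tested. CPM are counts scaled to a common library size after TMM normalization, values are listed in the order of replicates 1 to 4, and means are given with the SD over the 4 libraries of a group. Xist, the noncoding RNA of the inactive X chromosome, was at 844 to 1095 CPM in Bmal1+/+ libraries and at most 0.749 CPM in the others, and 4 Y-linked genes were counted only in the libraries labelled Bmal1-/-, so sex and genotype label cannot be told apart in any value below. The tissue label was also examined. The values go against the tumor stroma label. Markers of hepatocytes (8 genes, led by Alb) took 10.36 to 10.95% of all counts in Bmal1+/+ and 6.11 to 7.23% in the others. Of these only Alb was called lower, from 69270 ± 3372 to 16144 ± 2599 CPM, while 2 were called higher and 5 were not called. Trf, not called, had 9994 to 11667 CPM in Bmal1+/+ and 6390, 6075, 5346 and 20284 CPM in the others, the last being replicate 4. Apob, also not called, was at 3851 to 5751 and 5764 to 7160 CPM, higher without overlap. The 7.23% share was that of replicate 4 of the libraries labelled Bmal1-/-, beside 6.11 to 6.46% in replicates 1 to 3. By contrast, 9 fibroblast markers took 0.0138 to 0.0214% of counts in Bmal1+/+ and 0.0104 to 0.0112% in the libraries labelled Bmal1-/-. Among the fibroblast markers Dcn was highest, at 71.6 to 149 CPM over all libraries, and Fap lowest, at no more than 0.390 CPM. The 7 epithelial, biliary and colorectal tumor markers took 4.66e-04 to 0.00135% of counts in Bmal1+/+ and 0.00128 to 0.00181% in the others. Of these, Sox9 rose from 2.28 ± 0.924 to 13.1 ± 2.14 CPM (log2 fold change 2.52, adjusted p = 1.32e-04), Epcam (-1.31, adjusted p = 0.0497) and Krt19 (-2.18, adjusted p = 0.022) fell and Cdx2 had no count in any library. In bulk RNA, fewer cells of a type and less RNA per cell cannot be told apart. Total counts were 14054825 to 18449143 per library, and a floor of 3 counts corresponds to 0.163 to 0.213 CPM by counting error alone.

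Phase II enzymes attach a water-soluble group to drugs, hormones, bilirubin, bile acids and reactive electrophiles so that transporters can carry the product out of the cell. UGT enzymes sit in the endoplasmic reticulum and transfer glucuronic acid from UDP-glucuronic acid, and the Ugt1a genes are made by joining separate first exons to a common set of last exons. GST enzymes couple glutathione to electrophiles, mostly in the cytosol, while Mgst enzymes belong to an unrelated family of membrane proteins. The liver is rich in both systems, and many of their genes differ between the sexes in mouse liver.

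The promoters of the members with the largest decrease and the largest increase among those called are shown first. The promoter of Gstp2, a close neighbor of Gstp1, is shown with them. They are RefSeq sequences of GRCm38.p6, from 250 bases before to 50 bases after the transcription start, written 5′ to 3′ on the gene's strand, with capitals at matches to the motifs named below. Ugt1a9 (ENSMUSG00000090175) lies at chr1:88070529-88070828 on the plus strand, Gstp1 (ENSMUSG00000060803) at chr19:4037863-4038162 on the minus strand and Gstp2 (ENSMUSG00000038155) at chr19:4042172-4042471 on the minus strand.
Ugt1a9 promoter: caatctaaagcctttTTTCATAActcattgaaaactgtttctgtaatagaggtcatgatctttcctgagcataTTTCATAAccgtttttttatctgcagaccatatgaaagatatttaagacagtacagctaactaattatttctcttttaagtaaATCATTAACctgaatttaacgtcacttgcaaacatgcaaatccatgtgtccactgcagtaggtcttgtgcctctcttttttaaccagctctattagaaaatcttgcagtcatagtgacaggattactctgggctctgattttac
Gstp1 promoter: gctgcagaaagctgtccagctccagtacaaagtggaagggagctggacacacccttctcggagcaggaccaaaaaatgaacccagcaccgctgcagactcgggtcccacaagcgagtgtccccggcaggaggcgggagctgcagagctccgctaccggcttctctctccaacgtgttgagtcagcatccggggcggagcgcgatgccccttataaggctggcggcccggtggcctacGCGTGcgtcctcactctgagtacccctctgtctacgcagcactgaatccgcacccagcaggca
Gstp2 promoter: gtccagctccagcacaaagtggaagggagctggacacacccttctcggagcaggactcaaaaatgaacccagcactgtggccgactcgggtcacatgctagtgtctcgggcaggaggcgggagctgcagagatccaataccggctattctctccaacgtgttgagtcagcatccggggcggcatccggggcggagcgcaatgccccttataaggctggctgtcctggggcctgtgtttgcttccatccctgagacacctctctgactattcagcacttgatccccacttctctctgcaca

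In the Ugt1a9 promoter the capitals mark 2 matches to a D-box, the binding sequence of PAR bZIP factors such as Dbp, and 1 match to a binding sequence of the hepatocyte factor HNF1. The Gstp1 promoter held 1 match to the core of the xenobiotic response element, and the Gstp2 promoter held none of the motifs searched. Both Gstp promoters were 76.4% identical over their alignment.

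Over all tested members, 17 were lower and 10 higher in the libraries labelled Bmal1-/- (adjusted p below 0.05, quasi-likelihood test of edgeR, p adjusted by Benjamini-Hochberg over 14353 genes), and 12 were not called. That is 43.6% lower and 25.6% higher, against 16.2% lower and 14.9% higher among all genes tested. By the study's criterion, an absolute log2 fold change above 1 with an unadjusted p below 0.05, 15 members were lower and 7 higher, against 8.71% and 5.41% of all genes. The 2 groups of libraries did not overlap for 23 of the 39 tested members, against 33.4% of all genes tested. The median log2 fold change of the tested members was -0.17, beside 0.02 for all genes. The enzyme classes moved in different directions. All 4 Gsta, all 3 tested Gstt and 6 of 8 tested Ugt1a genes fell, 5 of 7 Gstm genes and both tested Gstp genes rose, and the Ugt2b class held 2 that fell and 3 that rose. In the annotation Gsta3, Gstm5, Gsto1, Gsto2, Gstz1 and the Ugt1a genes overlap other genes on the opposite strand, and Gstt3, Mgst2, Ugt2a1, Ugt2a2 and 7 of the 9 Ugt1a genes overlap predicted genes on their own strand. Strand use in the counting is not stated, so reads of such partners cannot be told apart.

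**Figure D1:**
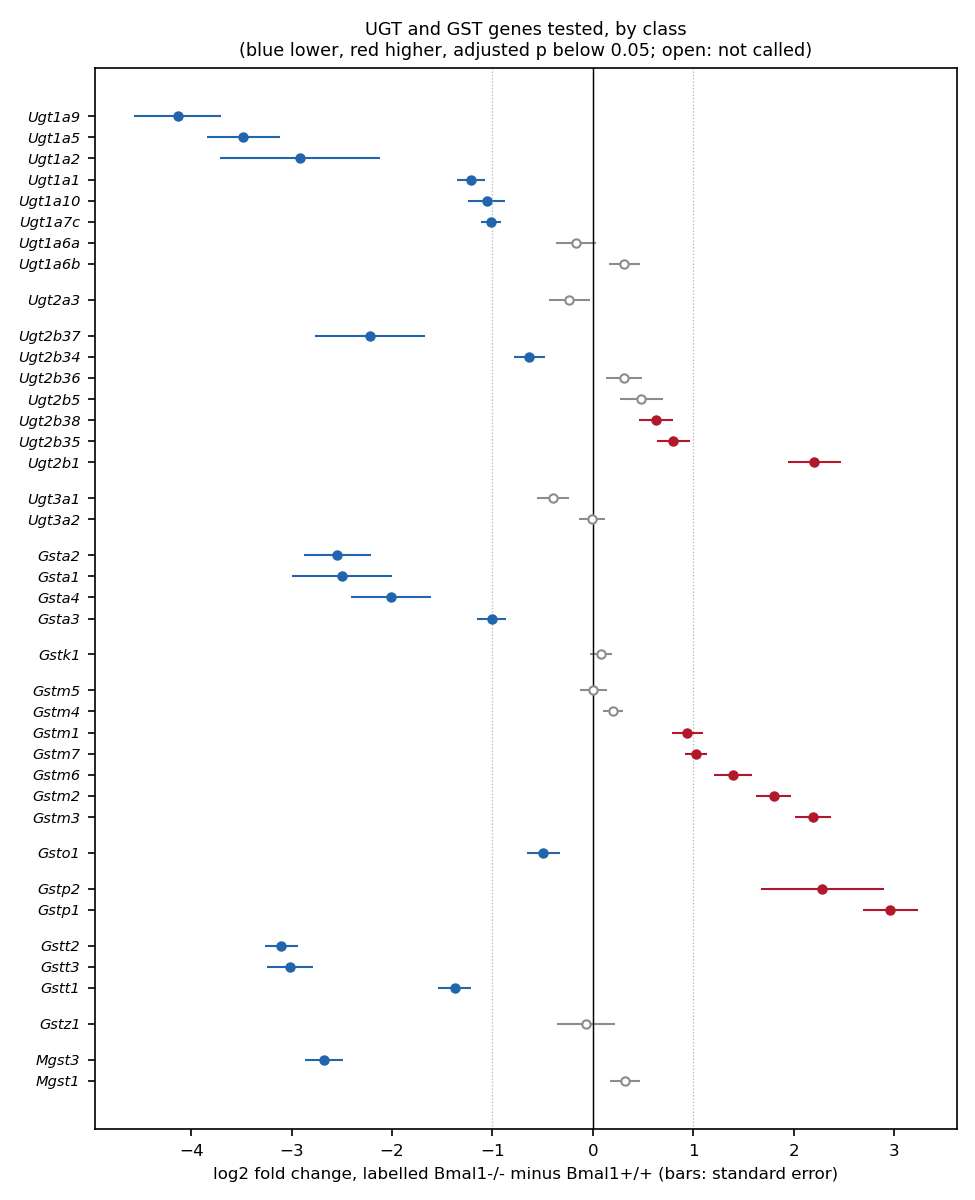
Log2 fold change (libraries labelled Bmal1-/- minus Bmal1+/+) of the 39 tested UGT and GST genes on the horizontal axis, grouped by class. Points are edgeR estimates, bars the standard error, blue and red mark adjusted p below 0.05, open points were not called, and dotted lines stand at -1 and 1. The Gsta and Gstt points lie at -1.01 or below, and the called Gstm points between 0.94 and 2.19.

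The Ugt1a genes lie in 1 locus on the plus strand of chromosome 1 of GRCm38, between 88055388 and 88220002. Each has its own first exon and all share the last exons, and in the annotation any 2 of the 9 coding sequences were identical over at least 737 bases at the 3′ end. Fragments from those exons cannot be assigned to 1 gene, so the values of these genes are not independent and depend on how the counting split them.

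Ugt1a9 had the largest decrease of all members. It measured 245, 274, 184 and 419 CPM in the Bmal1+/+ libraries and 7.62, 9.76, 19.9 and 26.7 CPM in the libraries labelled Bmal1-/-. Every library of the second group was far under every one of the first, and replicate 4 was the highest in both. The group means were 281 ± 99.7 and 16 ± 8.9 CPM, with a log2 fold change of -4.14 (SE, the standard error, 0.43, adjusted p = 1.32e-04). Ugt1a9 enzymes conjugate bulky phenols and fatty acids.

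Ugt1a5 fell by nearly as much. Its level was 443, 543, 409 and 487 CPM in Bmal1+/+ and 34.8, 25, 28.3 and 80.5 CPM in the labelled mutants, where replicate 4 stood above the other 3, and the fold change was -3.48 on the log2 scale (SE 0.36, adjusted p = 1.33e-04).

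Ugt1a1, the enzyme that conjugates bilirubin, was the most abundant member of all in Bmal1+/+ libraries per length (mean 356 FPKM, fragments scaled by gene length and library total). Its CPM values were 828, 742, 883 and 748 against 354, 313, 411 and 301, with no overlap. The decrease was about 2.32-fold between means, with a log2 fold change of -1.22 (SE 0.14, adjusted p = 2.15e-04).

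Ugt1a7c and Ugt1a10 fell by similar amounts from lower levels. Ugt1a7c had 80.3, 80.1, 71.8 and 66.3 CPM in Bmal1+/+ and 38.8, 35.8, 38.07 and 34.9 CPM in the libraries labelled Bmal1-/- (log2 fold change -1.02, adjusted p = 8.30e-05). For Ugt1a10 the values were 15.6, 30.3, 26.9 and 24.6 CPM and 10.9, 12.1, 12.4 and 11.5 CPM (log2 fold change -1.06, adjusted p = 0.00251). Both pairs of groups were apart, and the mutant-labelled values were close together.

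Ugt1a2 had the widest SE of the tested genes of the locus. The Bmal1+/+ libraries had 46.2, 9.16, 64.2 and 91.7 CPM and the others 7.49, 0.277, 10.6 and 9.63 CPM, so that replicate 2 was lowest in both groups and the groups overlapped. The gene was called lower (log2 fold change -2.91, SE 0.80, adjusted p = 0.0204), but not without Bmal1+/+ replicate 4 (log2 fold change -2.52, adjusted p = 0.0568).

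The 2 Ugt1a6 genes, whose enzymes conjugate small planar phenols, did not pass the test. Ugt1a6a ranged from 84.7 to 115 CPM in Bmal1+/+ and from 63.5 to 129.7 CPM in the other group (log2 fold change -0.17, adjusted p = 0.562). Ugt1a6b ranged from 59.9 to 71.2 and from 58.9 to 95.8 CPM (log2 fold change 0.31, adjusted p = 0.154). Their coding sequences were 98.4% identical, and counted as 1 gene they gave a log2 fold change of 0.04 (adjusted p = 0.875). Without replicate 4 of the libraries labelled Bmal1-/-, Ugt1a6b was called higher (0.44, adjusted p = 0.0219). Ugt1a8 was under the filter, with 3 to 8 counts in each Bmal1+/+ library and 0 in each of the others.

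Summed over the 9 Ugt1a genes, the deposited FPKM were 773 ± 35.6 in Bmal1+/+ and 233 ± 17.2 in the libraries labelled Bmal1-/-. The make-up of the sum differed as well. Ugt1a1 made up a mean of 46.2% of it in the first group and 66.8% in the second, Ugt1a5 went from 27.3% to 8.33% and Ugt1a9 from 16.2% to 3.12%, and the 2 Ugt1a6 genes together with the rest made up the remainder. These shares describe the values as the counting split them.

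**Figure D2:**
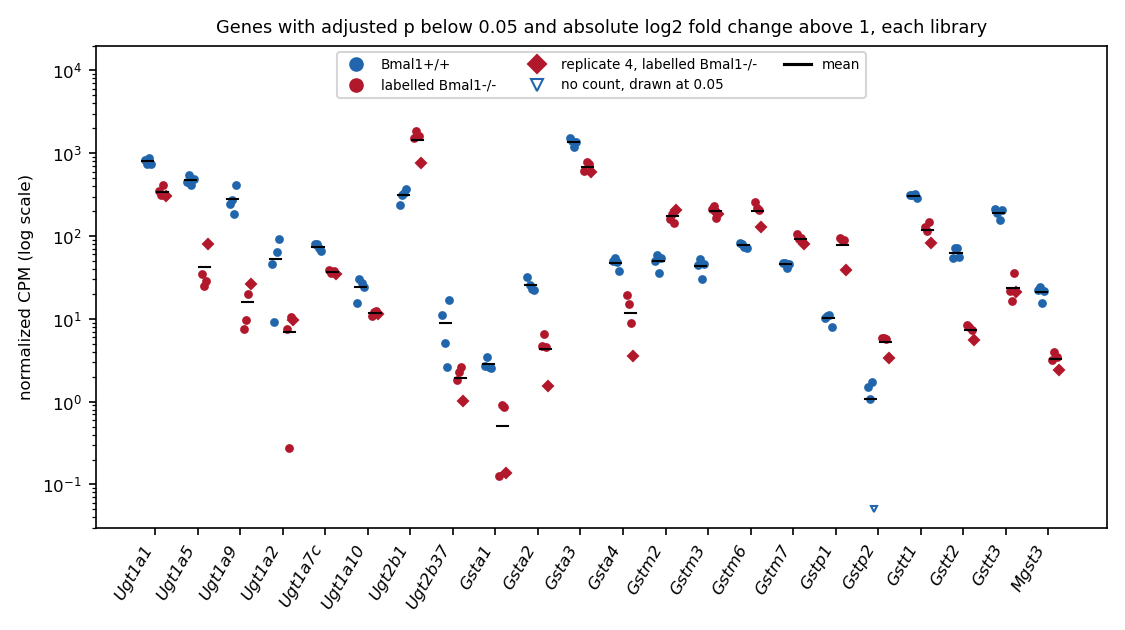
CPM on a log scale in each library for the 22 members with adjusted p below 0.05 and an absolute log2 fold change above 1. Blue circles are Bmal1+/+ libraries, red circles and the red diamond (replicate 4) libraries labelled Bmal1-/-, and black lines group means, with a library without counts drawn as an open triangle at 0.05. The groups are apart for all genes but Ugt1a2 and Ugt2b37, and the diamond is far below its group for Gstp1, at 39.1 CPM.

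The Ugt2b genes, whose enzymes conjugate steroids, bile acids and drugs, form a cluster on chromosome 5 between 86889767 and 87424203. Ugt2b1 rose most. It measured 234, 310.2, 335 and 368 CPM in Bmal1+/+ and 1532, 1832, 1623 and 767 CPM in the libraries labelled Bmal1-/-. The lowest value of the second group, in replicate 4, was still more than that of any Bmal1+/+ library. The means were 312 ± 57 and 1438 ± 465 CPM and the log2 fold change was 2.21 (SE 0.27, adjusted p = 3.09e-04). Per length, Ugt2b1 had rank 12 among the members in Bmal1+/+ libraries (120 FPKM) and rank 1 in the others (566 FPKM).

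Ugt2b5 was the most abundant member of the class per length in Bmal1+/+ libraries (327 FPKM) and came after Ugt2b1 in the others (467 FPKM), and it was not called. Its values of 601, 564, 505 and 792 CPM and 789, 865, 1164 and 623 CPM overlapped (log2 fold change 0.48, adjusted p = 0.11). Leaving out replicate 4 of the libraries labelled Bmal1-/- gave a log2 fold change of 0.61 and adjusted p = 0.0323. Ugt2b36 gave a like picture, at 496 to 615 CPM in Bmal1+/+ and 488 to 888 CPM in the others (log2 fold change 0.31, adjusted p = 0.226), and 0.44 with adjusted p = 0.0452 without that library.

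Ugt2b35 rose from a range of 114 to 151 CPM to one of 167 to 273 CPM without overlap (log2 fold change 0.80, adjusted p = 0.00541). Ugt2b38 was also called higher, but its ranges of 126 to 164 and 157 to 272 CPM overlapped (log2 fold change 0.63, adjusted p = 0.0189). The call was lost without Bmal1+/+ replicate 1 (adjusted p = 0.0532) or 2 (adjusted p = 0.0577) and without replicate 3 of the other group (adjusted p = 0.0502), where the log2 fold changes were 0.60, 0.58 and 0.48, and with the replicate number as a block it was 0.61 (adjusted p = 0.0543).

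The other called members of the class fell. Ugt2b34 went from a range of 565 to 771 CPM to 388 to 492 CPM (log2 fold change -0.63, adjusted p = 0.0115). Ugt2b37 was far rarer, with 11.1, 5.06, 2.62 and 17.1 CPM in Bmal1+/+ and 1.81, 2.29, 2.63 and 1.02 CPM in the other group. Its Bmal1+/+ values varied widely, and replicate 3 there was within the range of the libraries labelled Bmal1-/- (log2 fold change -2.22, SE 0.55, adjusted p = 0.0127). Ugt2b5, Ugt2b37 and Ugt2b38 are close copies, with coding sequences 94.1 to 97.0% identical, and the split of fragments among them is uncertain. With the replicate block the value of Ugt2b37 was -1.945 (adjusted p = 0.0583).

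The summed FPKM of the Ugt2b class were 858 ± 114 in Bmal1+/+ and 1527 ± 383 in the libraries labelled Bmal1-/-, where replicate 4 had 999 and the other 3 had 1503 to 1871. Replicate 4 was thus inside the Bmal1+/+ range of 771 to 1022. Ugt2b1 made up 14% of the sum in the first group and 36.4% in the second, on average.

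Of the small UGT classes none was called. Ugt2a3 had 308, 355, 355 and 369.9 CPM in Bmal1+/+ and 311, 364, 327 and 179 CPM in the libraries labelled Bmal1-/-, with overlap and a low value in replicate 4 (log2 fold change -0.23, adjusted p = 0.406). Ugt2a1 and Ugt2a2, olfactory enzymes that share exons, reached at most 3 and 2 counts in any library. Ugt3a2, which uses other UDP-sugars than glucuronic acid, measured 485, 442, 435 and 545 and 470.0, 455, 544 and 426 CPM, and these ranges were nearly the same (log2 fold change -0.01, SE 0.13, adjusted p = 0.969). Ugt3a1 was at 104 to 162 and 79.2 to 115 CPM (log2 fold change -0.40, adjusted p = 0.0846).

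**Figure D3:**
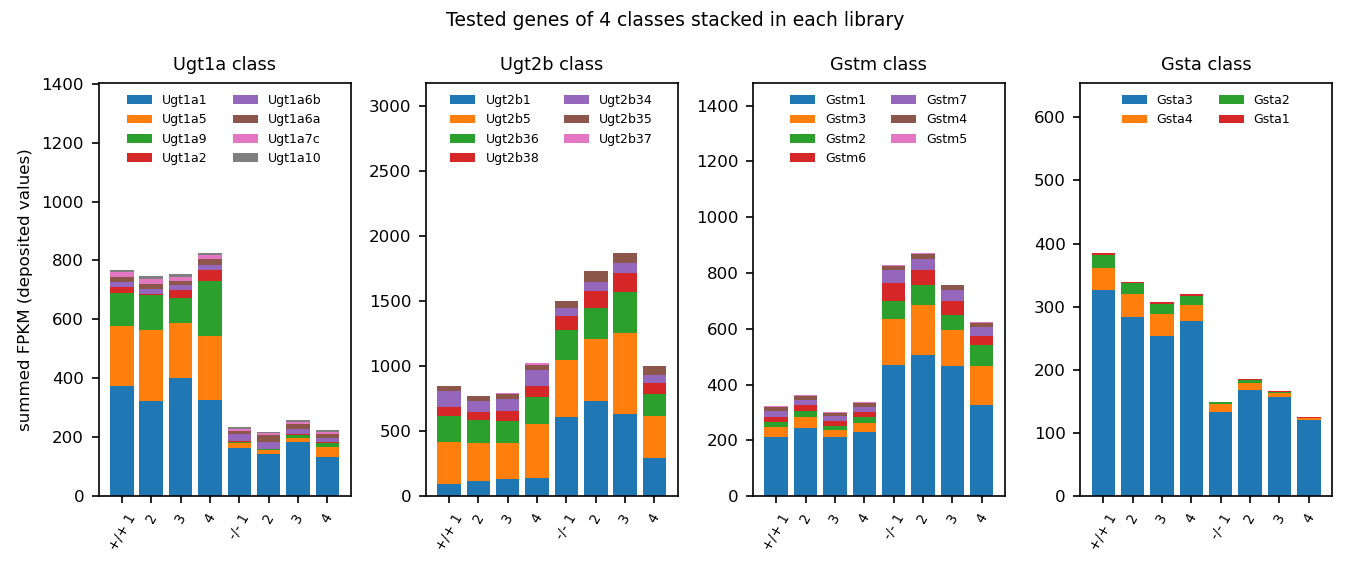
Deposited FPKM of the tested Ugt1a, Ugt2b, Gstm and Gsta genes stacked in each of the 8 libraries, with Bmal1+/+ replicates 1 to 4 on the left of each panel and libraries labelled Bmal1-/- on the right. Each panel has its own vertical scale in FPKM. The Ugt1a stack was 747 to 825 on the left and 219 to 257 on the right, and the Gstm stack 302 to 362 and 626 to 871.

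The alpha class of GST, which detoxifies products of lipid peroxidation, fell in all 4 members. Gsta3, the most abundant, lies on chromosome 1 from 21240589 to 21265661, apart from the other 3 on chromosome 9. It measured 1538, 1392, 1200.3 and 1352 CPM in Bmal1+/+ and 614, 781, 743 and 587 CPM in the libraries labelled Bmal1-/-, without overlap (log2 fold change -1.01, SE 0.15, adjusted p = 8.82e-04).

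Gsta4, whose enzyme favors 4-hydroxynonenal, had 49.4, 53.6, 49.2 and 38.2 CPM and 19.2, 15.2, 8.97 and 3.6 CPM, again without overlap but with a wide spread in the second group, where replicate 4 was lowest (log2 fold change -2.01, SE 0.40, adjusted p = 0.00436). Gsta2 went from 32, 25.4, 23 and 22.1 CPM to 4.75, 6.65, 4.55 and 1.56 CPM (log2 fold change -2.55, SE 0.33, adjusted p = 4.76e-04). Gsta1 was the rarest, with 2.71, 3.46, 2.62 and 2.56 CPM and 0.125, 0.900, 0.854 and 0.136 CPM, and the lowest library held 2 counts (log2 fold change -2.50, SE 0.50, adjusted p = 0.00466). The coding sequences of Gsta1 and Gsta2 were 97.6% identical, and counted as 1 gene they had a log2 fold change of -2.54 (adjusted p = 5.28e-04).

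All 3 tested members of the theta class fell. The genes lie together on the minus strand of chromosome 10 between 75774115 and 75837424, and theta enzymes act on small halogenated compounds and sulfate esters. Gstt2 measured 54.8, 71.8, 70.9 and 55.5 CPM in Bmal1+/+ and 8.49, 7.96, 7.33 and 5.56 CPM in the libraries labelled Bmal1-/-, an 8.62-fold difference of means and the smallest adjusted p of all members (log2 fold change -3.10, SE 0.16, adjusted p = 2.26e-06).

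Gstt3 was more abundant, at 211, 191, 158 and 208 CPM and 21.7, 16.6, 35.7 and 21.1 CPM, and the groups were apart by a wide gap (log2 fold change -3.01, SE 0.23, adjusted p = 1.95e-05). Gstt1, the main theta transcript, fell less, from 312, 312, 317 and 289 CPM to 128, 114, 149 and 82.5 CPM (log2 fold change -1.38, SE 0.17, adjusted p = 3.12e-04). Gstt4 had no count in any library. The summed FPKM of the class were 206 ± 8.51 in Bmal1+/+ and 69.4 ± 16.6 in the other group.

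The mu class lies in 1 cluster on chromosome 3 between 107895821 and 108044894 and moved the other way. Gstm1, its most abundant member and a major hepatic GST, measured 604, 728, 608 and 676 CPM in Bmal1+/+ and 1315, 1409.6, 1341 and 956 CPM in the libraries labelled Bmal1-/-. Although replicate 4 was low in the second group, the groups did not overlap (log2 fold change 0.94, SE 0.15, adjusted p = 0.00168).

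Gstm3 rose most within the class, from 44.3, 52.9, 30.6 and 45.8 CPM to 213, 228, 166 and 187 CPM (log2 fold change 2.19, SE 0.18, adjusted p = 2.69e-05). Gstm2 followed, from 50.1, 58.8, 36.2 and 54.7 CPM to 159, 185, 145 and 206 CPM (log2 fold change 1.8, SE 0.17, adjusted p = 7.28e-05). For both genes Bmal1+/+ replicate 3 was the lowest library, and replicate 4 of the other group was not the lowest, unlike in Gstm1.

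Gstm6 measured 82.5, 81.2, 73.4 and 71.9 CPM and 257, 220.3, 205 and 130.2 CPM (log2 fold change 1.40, SE 0.19, adjusted p = 5.46e-04), and Gstm7 47.8, 46.7, 41.5 and 45.6 CPM and 106, 91.3, 93.8 and 79.4 CPM (log2 fold change 1.03, SE 0.11, adjusted p = 1.37e-04). The groups were apart for both. At the outer ends of the cluster, Gstm4 and Gstm5 were not called. Gstm4 was at 33.5 to 41.4 and 38.8 to 46.4 CPM (log2 fold change 0.20, adjusted p = 0.171), and Gstm5, known from testis and brain, at 7.07 to 8.26 and 6.48 to 8.31 CPM (log2 fold change 0.00, SE 0.14, adjusted p = 0.987).

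In summed FPKM the mu class had 331 ± 25.2 in Bmal1+/+ and 771 ± 107 in the libraries labelled Bmal1-/-. Gstm1 made up 68.1% of this sum in the first group and 57.1% in the second, and Gstm3 9.81% and 19.9%. Coding sequences within the class were 64.0 to 85.2% identical, with gaps counted as differences. The Gstm1 sequence used had 732 bases and those of Gstm2, Gstm3, Gstm4 and Gstm7 had 654, which lowers the values of pairs with Gstm1.

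The pi class had the largest increase of any member. Gstp1, known to be more abundant in the liver of male mice, measured 10.3, 10.9, 11.2 and 8.07 CPM in Bmal1+/+ and 94.9, 90.7, 90.6 and 39.1 CPM in the libraries labelled Bmal1-/-. Replicates 1 to 3 of the second group were close to each other and replicate 4 was far lower, yet all 4 were above the Bmal1+/+ libraries. The log2 fold change was 2.96 (SE 0.27, adjusted p = 5.90e-05). Gstp1 is 1 of the genes shown above with its promoter.

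Gstp2 had 1.5, 1.09, 1.75 and 0 CPM and 5.87, 5.89, 5.76 and 3.39 CPM, with no count in Bmal1+/+ replicate 4 (log2 fold change 2.28, SE 0.61, adjusted p = 0.0186). The coding sequences of Gstp1 and Gstp2 were 98.1% identical over 630 bases, so fragments can be exchanged between them, and counted as 1 gene they gave a log2 fold change of 2.91 (adjusted p = 7.76e-05). Gstp3, 72.8% identical to Gstp1, had at most 14 counts and was not tested. Per length, the class stayed small, with summed FPKM of 3.12 ± 0.923 and 20.7 ± 6.82.

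Of the remaining soluble classes, Gsto1 was called and Gstk1 and Gstz1 were not. Gsto1, an omega-class thiol transferase, measured 87.8, 86.6, 83.4 and 92.8 CPM in Bmal1+/+ and 61.1, 57.8, 83.9 and 45.9 CPM in the libraries labelled Bmal1-/-, where replicate 3 reached the Bmal1+/+ range (log2 fold change -0.50, SE 0.16, adjusted p = 0.043). The call was lost without any 1 of 7 libraries, all but replicate 3 of the libraries labelled Bmal1-/-, with log2 fold changes of -0.52 to -0.37 and adjusted p of 0.0667 to 0.107, and it was kept in 7 of 17 alternative settings. Gsto2 had at most 10 counts.

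Gstk1, the mitochondrial and peroxisomal kappa enzyme, was at 113, 103, 111 and 119 CPM and 112, 127, 132 and 101 CPM, with full overlap (log2 fold change 0.08, SE 0.11, adjusted p = 0.615). Gstz1, which isomerizes maleylacetoacetate in tyrosine breakdown, was at 508, 336, 313 and 524 CPM and 525, 542, 261 and 271 CPM. Each group held 2 libraries at a high and 2 at a low level (log2 fold change -0.07, SE 0.29, adjusted p = 0.872).

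Among the microsomal enzymes Mgst1 was the main transcript, at rank 2 of all members in Bmal1+/+ libraries (354 FPKM) and rank 3 in the others (450 FPKM). Its values of 1641, 1747, 1674 and 1905 CPM and 1729, 2239, 2294 and 2419.7 CPM overlapped (log2 fold change 0.32, SE 0.15, adjusted p = 0.129). Mgst3, which reduces lipid peroxides and can make leukotriene C4, fell from 22, 24.1, 15.7 and 21.5 CPM to 3.18, 3.95, 3.49 and 2.44 CPM, a 6.38-fold difference of means without overlap (log2 fold change -2.67, SE 0.19, adjusted p = 1.36e-05). Mgst2 had at most 5 counts.

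Added over all 46 members, the summed FPKM were 3343 ± 197 in Bmal1+/+ and 3657 ± 588 in the libraries labelled Bmal1-/-, with ranges of 3173 to 3611 and 2832 to 4091 that overlapped. The share of all counts was 1.04 ± 0.0650% and 1.11 ± 0.158%. Falls in some classes stood beside rises in others, and the order of levels per length differed. In Bmal1+/+ libraries Ugt1a1 (356 FPKM), Mgst1 (354), Ugt2b5 (327), Gsta3 (285) and Gstm1 (225) led, where the ranges of neighbors overlapped except those of Gsta3 and Gstm1. In the libraries labelled Bmal1-/- the order was Ugt2b1 (566 FPKM), Ugt2b5 (467), Mgst1 (450), Gstm1 (442) and Ugt2b36 (239), and again only the last neighbors were apart.

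Replicate 4 of the libraries labelled Bmal1-/- stood apart. Acute-phase genes (8 markers such as Saa1 and Hp) took 3.62% of its counts, against 0.228 to 0.429% in the other 3 and 0.1765 to 0.289% in Bmal1+/+. It was the lowest of its group in 24 of the 39 tested members, whereas it was lowest in 30.0% of all genes tested. Without it 16 members were called lower and 13 higher, beside 2502 lower and 2212 higher among 14775 genes tested. With all libraries 17 members were lower and 10 higher, beside 2322 and 2135 among 14353 genes. The macrophage and leukocyte markers (6 genes) took 0.0237 to 0.0306% of counts in Bmal1+/+ and 0.00996 to 0.0186% in the libraries labelled Bmal1-/-. The endothelial markers (5 genes) took 0.0209 to 0.0237% and 0.0132 to 0.0198%. The summed shares of these lists and of the fibroblast markers given above did not overlap between the groups. Called lower were 5 of 6 tested macrophage and leukocyte, 4 of 5 endothelial and 4 of 8 fibroblast markers, beside 16.2% of all genes. The part of these cell types and of hepatocytes in the members' differences was not tested. Within the 8 hepatocyte markers, Alb fell (log2 fold change -2.10, adjusted p = 6.8e-05), Apoa1 (1.58, adjusted p = 0.00107) and Fgb (1.14, adjusted p = 0.0269) rose and 5 were not called. For Fgb the libraries labelled Bmal1-/- had 4178.5, 4786, 5124.4 and 12463 CPM, the highest in replicate 4.

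Genes that supply, export or regulate the same reactions were read from 5 lists, with 86 of 93 genes tested. Of these 24 were lower and 11 higher, that is 27.9% and 12.8%, beside the 16.2% and 14.9% of all genes. The list for supply of UDP-glucuronic acid and cleavage of glucuronides showed 1 call among 7 tested genes. This was Slc35b1, a nucleotide transporter of the endoplasmic reticulum, which rose from 34.9 ± 5.63 to 54.6 ± 10.9 CPM (log2 fold change 0.65, adjusted p = 0.0139). The enzyme that makes the sugar donor, Ugdh, and the other 5 did not pass.

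In glutathione synthesis, recycling and breakdown 4 of 16 tested genes were lower and 3 higher. These shares of 25% and 18.8% stand beside 16.2% and 14.9% of all genes. Cbs, which starts the transsulfuration of homocysteine to cysteine, rose from 256 ± 22.1 to 561 ± 30.4 CPM (log2 fold change 1.14, adjusted p = 1.04e-04), Lap3 had a log2 fold change of 0.64 (adjusted p = 0.00452) and Gss, glutathione synthetase, 0.37 (adjusted p = 0.022). Mat1a, which makes S-adenosylmethionine in liver, fell from 6033 ± 523 to 3509 ± 621 CPM (log2 fold change -0.78, adjusted p = 0.00639). The other 3 that fell were Ggt5 (-0.72, adjusted p = 0.00829), Ahcy (-0.60, adjusted p = 0.0124) and Anpep (-0.45, adjusted p = 0.0495).

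Of 20 tested genes of other enzymes and proteins linked to glutathione, outside the symbols chosen, 3 were lower and 2 higher. That is 15% and 10%, beside 16.2% and 14.9% of all genes. Glo1, which disposes of methylglyoxal, rose from 92.3 ± 4.59 to 189 ± 34.4 CPM (log2 fold change 1.04, adjusted p = 5.81e-04), and Eef1g, an elongation factor with a GST-like domain, had 0.57 (adjusted p = 0.00116). The 3 that fell, Ptges, Gpx7 and Nat8, were rare, with at most 1.72 ± 0.45 CPM on average in either group.

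Among 15 transporters 6 were lower and 2 higher (40% and 13.3%, beside 16.2% and 14.9% of all genes). Abcb1a, a P-glycoprotein, fell most, from 31.1 ± 0.885 to 0.696 ± 0.34 CPM (log2 fold change -5.45, SE 0.24, adjusted p = 8.35e-07). Abcc4 and Abcc1, which export glucuronide and glutathione conjugates, fell as well. Mean levels of Abcc4 were 14.1 and 2.65 CPM (-2.41, adjusted p = 9.94e-04). Those of Abcc1 were 3.62 and 1.44 CPM (-1.33, adjusted p = 0.00717). The more abundant Abcc2 and Abcc3 are named here after their values were seen. Abcc2 had 1087 and 804 CPM (-0.44, adjusted p = 0.046) and Abcc3 309 CPM in both groups (-0.000458, adjusted p = 0.999). The uptake carrier Slco1a4 also fell (-1.59, adjusted p = 0.00552). The uptake carrier Slco1a1, known to be higher in male mouse liver, rose from 25.2 ± 26.4 to 453 ± 131 CPM (log2 fold change 4.17, SE 0.91, adjusted p = 0.00701), and the exporter Abcg2 had a log2 fold change of 0.86 (adjusted p = 0.00142).

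Regulators of drug metabolism showed 11 lower and 3 higher among 28 tested (39.3% and 10.7%, beside 16.2% and 14.9% of all genes). Cux2, a regulator known from female mouse liver, fell from 71.9 ± 11.1 to 0.409 ± 0.317 CPM (log2 fold change -7.39, SE 0.33, adjusted p = 8.45e-07), and Dbp, a clock-driven PAR bZIP activator, from 94.8 ± 20.7 to 4.74 ± 1.53 CPM (log2 fold change -4.32, SE 0.25, adjusted p = 4.11e-06). The estrogen receptor gene Esr1 (-3.72, adjusted p = 5.19e-04) and Por, the electron donor of cytochromes P450 (-2.75, adjusted p = 4.49e-05), also fell. Higher were Bcl6, a repressor known from male liver, at 15.4 ± 4.86 and 88 ± 27.9 CPM (log2 fold change 2.51, adjusted p = 1.40e-04), Nfil3, which binds the D-box as a repressor (1.25, adjusted p = 1.23e-04), and Stat5b, which carries the growth hormone signal (0.52, adjusted p = 0.00279). Nfe2l2, which encodes the activator of the antioxidant response and is named here after its values were seen, had -0.43 (adjusted p = 0.0353).

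**Figure D4:**
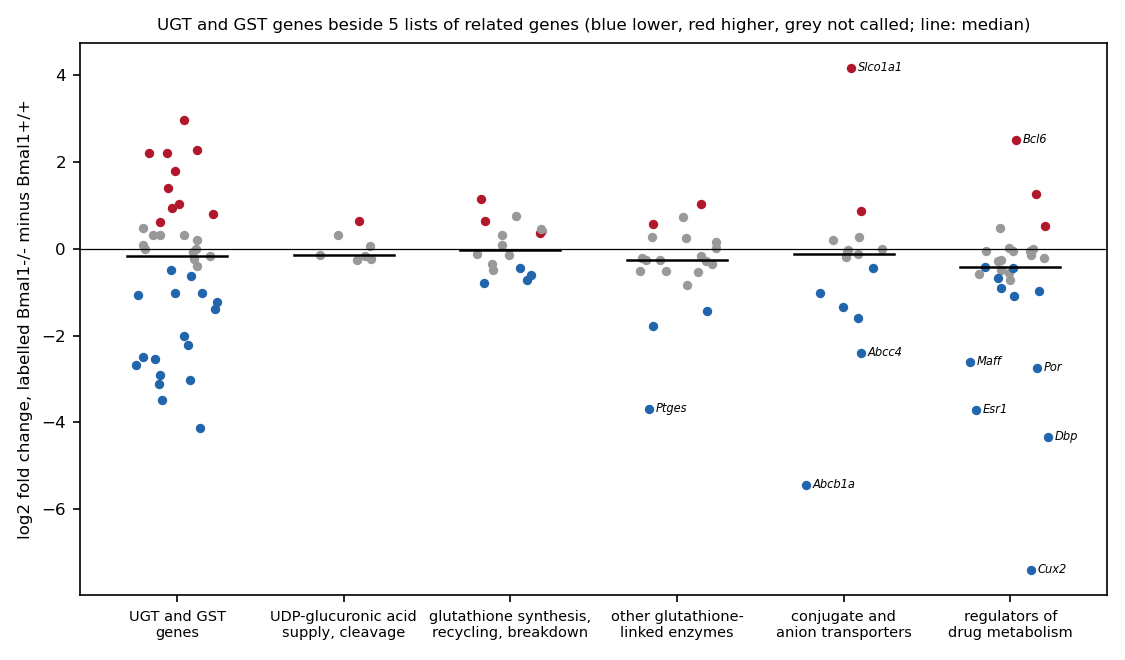
Log2 fold change (libraries labelled Bmal1-/- minus Bmal1+/+) of each tested UGT and GST gene and of each tested gene in 5 lists of related genes. Blue and red points have adjusted p below 0.05, grey points do not, and black lines are medians. The UGT and GST genes have points on both sides of 0, from -4.14 to 2.96, and the regulators reach -7.39 for Cux2.

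Promoters were compared with motif letters on both strands, in windows of 300 bases for 51 promoters of 42 members and 32851 promoters in all. The E-box CACGTG, to which the clock factors CLOCK and BMAL1 bind, was in none of the 51 and in 7.15% of all promoters, and the ROR element TAGGTCA was in none and in 2.61%. The D-box TTATGNAA was in 4 (7.84%, beside 3.38% of all), those of Ugt1a9, Ugt1a10 and Gstt1, which fell, and of Ugt2b1, which rose. The HNF1 element GTTAATNAT was in 3 (5.88%, beside 0.801% of all), in Ugt1a1, Ugt1a9 and Ugt1a10, all of which fell. The antioxidant response element TGACNNNGC was in 4 (7.84% beside 12.4%), in Gsta3, which fell, Gstm7, which rose, and Gstm5 and Mgst1, which were not called. The xenobiotic response element core GCGTG was in 10 (19.6% beside 32.4%) and the STAT5 element TTCNNNGAA in 5 (9.80% beside 8.30%), in promoters of members that fell, rose and were not called, and in Gstm5 the xenobiotic and antioxidant matches shared bases. A match is a stretch of letters and no measured site of binding.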

How the data were processed

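By the labels and the study's methods, RNA was sequenced from sorted GFP-negative cells of MC38 tumors, although the markers measured go against that tissue, in 4 Bmal1+/+ libraries and 4 libraries labelled Bmal1-/-. By the study's methods, HISAT2 was the authors' aligner for the paired-end reads (genome GRCm38) and StringTie their fragment counter. The deposited counts are whole numbers without normalization, and the deposited FPKM equal the count over the library total and 1 fixed length per gene for 100% of 11442 well-counted genes. The submitters' processing notes also name CASAVA 1.8 and TopHat2 2.0.6. Strand use is not stated in the sources used here, and RNA input is given differently in the labels and the methods.

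Symbols came from GENCODE annotation of GRCm38, a release older than the authors' own, for 99.5% of 55487 identifiers. Genes were filtered (filterByExpr), TMM-scaled and tested with edgeR 4.0.16 in R 4.3.3 by the quasi-likelihood test, with no covariate and Benjamini-Hochberg adjustment over 14353 genes. Standard errors are those of the log2 fold change, calculated back from the test as its absolute value over the square root of the F statistic. The procedure was tested on simulated data. Depth was 14054825 to 18449143 counts per library, and a floor of 3 counts covers counting error only. Libraries did not duplicate each other, since counts of any pair with the same label differed by more than sampling noise (chi-square per degree of freedom at least 18.02).

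Every member was named. All 8 values were given for members with adjusted p below 0.05 and an absolute log2 fold change above 1. The same holds for the most abundant member of each class. From each list, up to 4 genes per direction with adjusted p below 0.05 and at least 1 CPM were named. Genes named after their values were seen are marked as such. The members, the 5 lists and the motifs were chosen with earlier results of these data known. Alternatives were DESeq2 1.42.0, limma-voom and limma 3.58.1 on log2(FPKM + 0.1) or log2(FPKM + 1), other scalings and filters, sums of close copies, each library left out and a replicate block. Coding identity was computed by global alignment of the longest annotated coding sequences (Biopython 1.88), with gaps counted as differences. Figures were drawn with matplotlib 3.10.9 in Python 3.11.15.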

Additional observations from a re-analysis of the deposited data

Results flagged for a closer look

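In each group of 4 libraries the highest and lowest value of every tested member was compared with its neighbors, and in 4 of 78 such groups the gap to the nearest library, divided by the whole range, was above Dixon's 95% critical value for 4 values. Chance alone flags about 1 in 20 groups. In Gsta1, Bmal1+/+ replicate 2 was high at 3.4573 CPM, while the other 3 had 2.5613 to 2.7087. In Gstm5, replicate 3 of the libraries labelled Bmal1-/- was low at 6.4761 CPM, beside 8.241 to 8.3055. Replicate 4 of the same group was low for both tested Gstp genes, in Gstp1 at 39.072 CPM beside 90.594 to 94.858, and in Gstp2 at 3.3917 CPM beside 5.7644 to 5.8864. Fragments can be exchanged between these genes, whose coding sequences are 98.1% identical, so their flags may not be independent. Replicate 4 is also the library with 3.62% of its counts in acute-phase genes, whose part in these values was not tested. Without it the log2 fold change was 3.19 (adjusted p = 9.64e-07, edgeR) for Gstp1 and 2.45 (adjusted p = 0.0157) for Gstp2.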

How the results depend on the processing

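None of the counts of members or list genes moved by as much as 1.5 times under any alternative run: members called lower were 15 to 17 and higher 9 to 13, or 15 and 7 when an absolute log2 fold change above 1 was also asked for, and by the study's criterion 12 to 16 and 6 to 8. Of 669 comparisons of a member with an alternative, 629 kept direction and side of the threshold, 17 lost the call, 3 gained it and 20 changed sign. The sign changes concerned 4 members that were never called. Gstm5 was -0.0061 with upper-quartile factors, -0.015 with at least 10 counts in every library, -0.0069 with DESeq2, -0.00054 with the replicate block and -0.052 to 0.071 with 1 library left out. Gstz1 was -0.25 to 0.078 with 1 library left out, and Ugt1a6a 0.037 when summed with Ugt1a6b. Ugt3a2 was 0.019 with library totals only, 0.018 with limma on either log2(FPKM) scale and -0.095 to 0.052 with 1 library left out. Of the 27 called members, 27 kept their direction under every alternative run and 23 also kept the call, the exceptions being Gsto1, Ugt1a2, Ugt2b37 and Ugt2b38. Ugt1a2 was also not called by limma-voom (-3.33, adjusted p = 0.0505).

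Samples that share a replicate number did not deviate together (correlations -0.0384, 0.0621, 0.0475 and 0.0366 across genes). Replicate 4 of the libraries labelled Bmal1-/- carries a different number in its sample title. No pairing of the groups is stated in the sources used here, so the replicate block serves only as an alternative. With it 15 members were called lower and 9 higher, Gsto1 (-0.53, adjusted p = 0.0597), Ugt2b37 and Ugt2b38 losing the call, and 2064 genes in all were lower and 1809 higher. Bmal1+/+ replicates 2 and 4 correlated best with their own number in the other group and 1 and 3 did not. With at least 10 counts in every library 36 members could be tested. Folds of members with few counts depend on the scale: on log2(FPKM + 1) Gsta1 was -1.29 and Gstp2 1.29, and Gstp2 was 3.34 with limma-voom. Of the 7 members under the filter, 6 were tested without it: Ugt1a8, at 3 to 8 counts against 0, was then called lower (adjusted p = 0.0118), its fitted fold being no bound, and Gsto2, Gstp3, Mgst2, Ugt2a1 and Ugt2a2 were not called (adjusted p 0.318 to 0.969). Gstt4 had no count to test.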
